A study of Mus musculus with 28 samples.

Results

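The genes described here encode the subunits of the constitutive proteasome, the multi-subunit protease that degrades ubiquitin-tagged proteins, together with its activators and the chaperones that assemble it. They were chosen by symbol from a table of gene expression in mouse retinal microglia: all symbols made of Psm, a letter from a to g, a number and at most 1 further letter. The interferon-inducible subunits Psmb8, Psmb9 and Psmb10, the PA28 genes Psme1 and Psme2, and symbols marked as pseudogenes (-ps) were left out. This gave 44 of the 40021 genes in the table. Of these, 43 passed the filter for testing, set at 1 RPKM or more in no fewer than 5 of 28 retinas. RPKM is the number of reads assigned to a gene, scaled to the length of its transcript and to the number of reads in the library. The exception was Psmb11, the beta subunit of the thymus-specific proteasome, whose highest value was 0.0483 RPKM. Each of the 43 tested members reached 1 RPKM in at least 7 of the 10 naïve retinas, so none passed the filter through an inflamed group alone.

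Microglia were sorted from single retinas of male Cx3cr1CreER:R26-tdTomato (C57BL/6) heterozygote mice, in which tamoxifen activates a Cre recombinase expressed from the Cx3cr1 locus and the recombined cells carry the red fluorescent protein tdTomato. All groups carried these alleles, and all cells were sorted as live tdTomatohi DRAQ7- events. Endotoxin-induced uveitis (EIU) was induced by injecting lipopolysaccharide (LPS), a bacterial cell wall component, into the vitreous, and retinas were taken at 4 h (6 retinas), 18 h (5 retinas) or 2 weeks (7 retinas) for comparison with 10 naïve retinas. Retinas belonged to 2 experiments, with 6, 3, 4 and 4 retinas of these groups (naïve, 4 h, 18 h, 2 weeks) in experiment 1 and 4, 3, 1 and 3 in experiment 2. No group received an injection without LPS, so effects of the injection and of LPS cannot be told apart. Other mononuclear phagocytes also express Cx3cr1, and each library pooled the cells of 1 retina. The labels do not say which retinas came from the same mouse, so p-values measure the spread between these retinas.

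The core particle of the proteasome is a barrel of stacked rings, with outer alpha rings (Psma genes) that gate the entry of substrates and inner beta rings (Psmb genes) that hold the catalytic sites. The regulatory particle caps the barrel. Its base contains a ring of ATPases (Psmc genes) that unfold the substrate and non-ATPase subunits that bind ubiquitin, and its lid (Psmd genes) removes ubiquitin chains. Dedicated chaperones build the alpha ring (Psmg genes) and the ATPase ring (Psmd5, Psmd9 and Psmd10). In immune cells the protease also supplies peptides for antigen presentation and degrades the inhibitors that hold NF-kappa B in the cytoplasm.

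Library depth ranged from 7510000 to 19700000 alignments, at which 1 read of a transcript of the median member length (1900.5 bases) was worth 0.0267 to 0.0701 RPKM. Between 6552 and 11825 genes reached 1 RPKM in a retina. The lowest numbers, 6552 to 7088, were in 4 retinas (naïve 3 and 4, 18 h 4 and 2 weeks 1), and counts are also given without these below. All 10 microglia markers examined were detected in every group, and their summed level was lower in the acute phase, with medians of 4690 RPKM at 4 h and 3100 RPKM at 18 h against 10649 RPKM in naïve and 10453 RPKM in 2-week retinas. Summed neutrophil markers stayed at or below 0.547 RPKM in naïve, 4 h and 2-week retinas and reached 15.8 RPKM in an 18 h retina. Of 6 monocyte markers, 5 reached 1 RPKM in some retina at 18 h, against 2 in each other group. Their summed level overlapped between groups, with medians of 7.06 (naïve), 6.62 (4 h), 8.26 (18 h) and 11.4 RPKM (2 weeks). These sums hide opposite directions of single markers. Plac8 had a median of 6.63 RPKM at 18 h against 0.108 RPKM in naïve retinas, and F13a1 had 0.328 against 5.69 RPKM. The other monocyte markers had medians of at most 0.107 RPKM at 18 h. Transcripts of rods, the photoreceptors that fill the retina, were present in every retina (8 of 8 markers, 1028 to 5507 RPKM in sum).

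In the naïve retinas the members spanned a wide range of RPKM. The highest median levels belonged to the beta-ring genes Psmb1 (264 RPKM), Psmb6 (249 RPKM) and Psmb2 (247 RPKM), followed by the alpha-ring gene Psma6 (198 RPKM). At the low end were Psme4, which encodes the nuclear activator PA200 (2.47 RPKM), Psmd3 of the lid (2.53 RPKM) and Psma8, the testis-specific alternative alpha subunit (2.62 RPKM). Psma8 was listed at 0 in 3 of the 10 naïve retinas. The inducible catalytic subunits made up 24.9% ± 5.84 (SD, n = 10) of the summed RPKM of all 6 catalytic genes in naïve retinas, with the constitutive genes Psmb5, Psmb6 and Psmb7 accounting for the rest.

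Summed over all 44 members, expression was 5858 ± 515 RPKM at 18 h (SD, n = 5). It was 3092 ± 510 RPKM in naïve (n = 10), 3075 ± 778 RPKM in 4 h (n = 6) and 3068 ± 556 RPKM in 2-week retinas (n = 7). The 5 retinas at 18 h, between 5189 and 6377 RPKM, all lay above the highest retina of any other group, which was a 4 h retina at 4296 RPKM. As a share of all RPKM in the library, members took 1.26% ± 0.0605 at 18 h, against 0.829% ± 0.0817 (naïve), 0.678% ± 0.143 (4 h) and 0.811% ± 0.117 (2 weeks), and the 18 h retinas (1.18% to 1.33%) again did not overlap the others (highest 1.03%). In sorted bulk samples, a change in which cells were collected and a change in RNA per cell cannot be told apart.

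**Figure D1:**
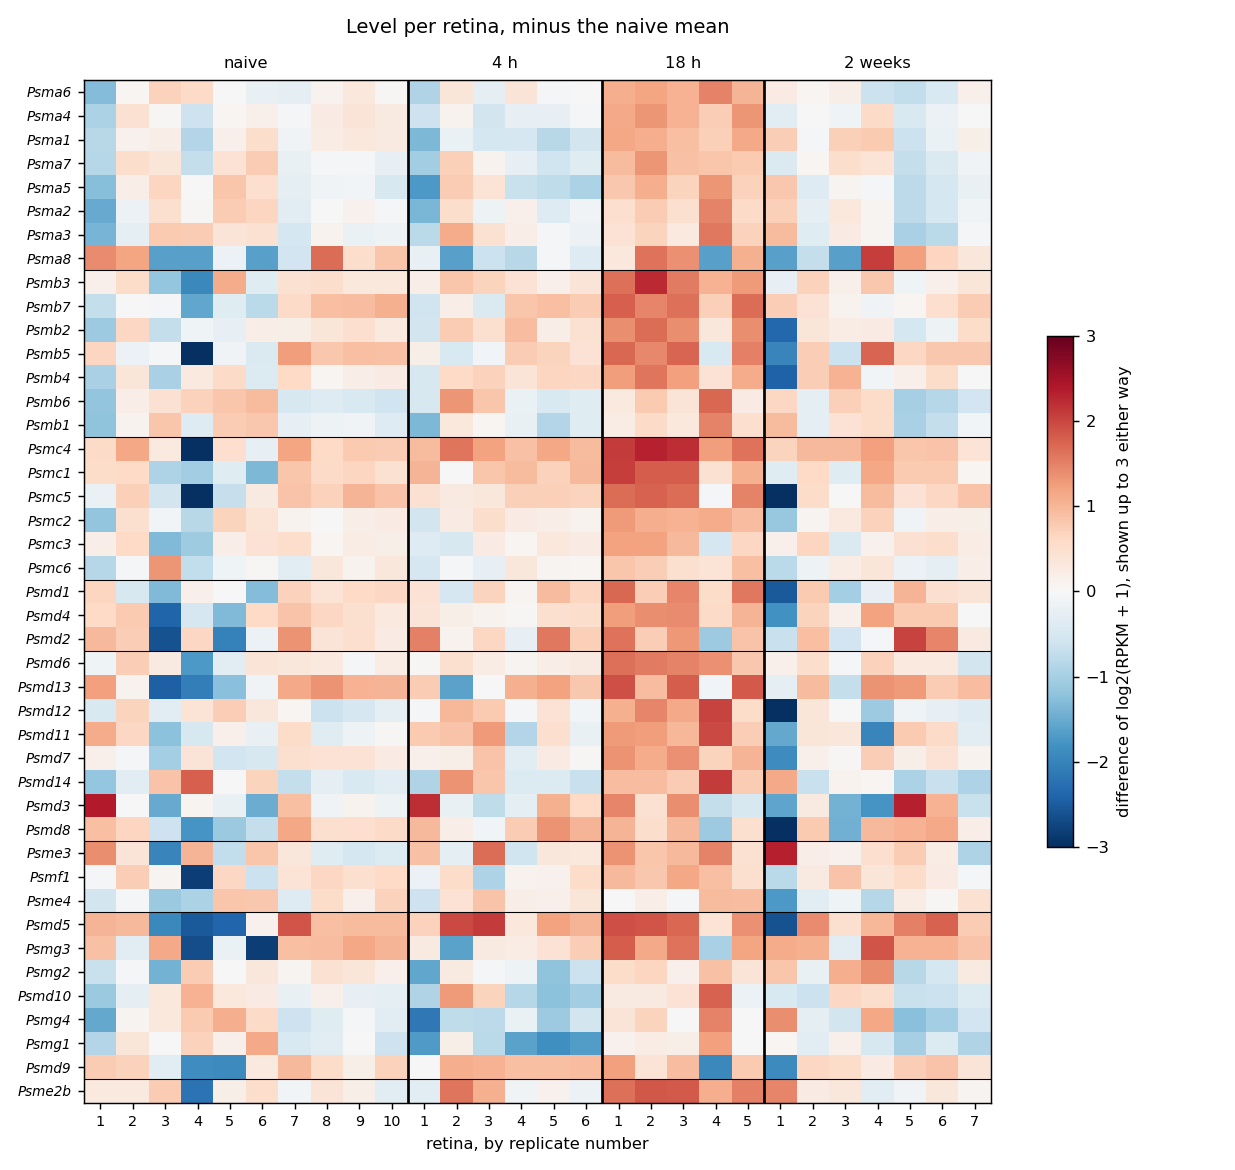
Level of the 43 tested members (rows, by part of the complex) in each of the 28 retinas (columns, by group and replicate number), as log2(RPKM + 1) minus the mean of the naïve retinas for that gene; the colour scale stops at 3 either way. The 18 h columns are above the naïve mean for nearly all genes, while naïve 3 and 4, 18 h 4 and 2 weeks 1 hold most of the lowest single values.

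The same naïve retinas served in the comparison with each time point. The comparison with 18 h addressed which genes had changed at the later acute stage. All 43 tested members had a higher mean log2 level at 18 h than in naïve retinas, against 45.1% of all genes tested, and their median log2 fold change was 1.02, against -0.08 for all 13164 genes. The study itself reported on this pathway from these retinas, so the list is no independent evidence of a direction. By limma, with an adjusted p of at most 0.05 and at least a 2-fold change, 10 members rose and none fell. This is 23.3% of the tested members, where 2.84% of all genes rose and 1.85% fell. Without the fold limit the members called were unchanged in number in each of the 5 comparisons; of all genes, 2.93% then rose at 18 h and 3.87% rose and 4.82% fell at 4 h, 0.0076% rose at 2 weeks, 2.94% rose from 4 h to 18 h and 1.55% fell from 18 h to 2 weeks. The values of 9 members did not overlap between the groups (2.05% of all genes were higher without overlap). At an unadjusted p under 0.05, 28 members were higher. The share of all genes at this unadjusted threshold was not computed, so this count is not set against all genes. Summed RPKM over all genes was larger in the acute groups, and scaling each retina to the same sum moved the median of all genes from -0.08 to -0.26 and that of the members to 0.72. It left 2 members called (Psmb3 and Psmd6), and the share of all genes called at this scaling was not computed.

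In the alpha ring, 3 of 8 genes rose at 18 h, with a median log2 fold change of 0.93 over the 8. Psma6 lay at 389, 396, 408, 439 and 542 RPKM in the 5 retinas at 18 h, against 77.0 (lowest), 198 (median) and 310 RPKM (highest) in naïve retinas. All 5 were above every naïve retina, and the log2 fold change was 1.17 ± 0.28 (SE; limma adjusted p = 0.011). Psma4 lay at 100, 124, 132, 149 and 149 RPKM at 18 h against 30.4, 64.4 and 82.5 RPKM in naïve retinas. The groups did not overlap for this gene either (log2 fold change 1.11 ± 0.26, limma adjusted p = 0.0081). Psma1 also rose (1.00 ± 0.28, limma adjusted p = 0.033), with 193 to 262 RPKM at 18 h and at most 170 RPKM in naïve retinas. The calls of Psma6 and Psma4 held in all 28 fits that each left out 1 retina, and that of Psma1 was lost in 7 of them, with a log2 fold change down to 0.90 (without naïve 4) and an adjusted p by limma of up to 0.0956 (without 18 h retina 1). Other settings ended all 3 alpha ring calls: with the length and GC trend removed Psma6 was at 0.91 and Psma4 at 0.87, at equal summed RPKM they were at 0.84 and 0.79, and after quantile normalisation both were at 0.85, all under the 2-fold limit. In experiment 1 alone their adjusted p by limma was 0.145 and 0.135, and in experiment 2 alone 0.241 and 0.0872. Psma7 also did not overlap (178 to 257 RPKM against at most 174 RPKM) but missed the adjusted threshold (0.95 ± 0.30, limma adjusted p = 0.064). Psma2 (0.77), Psma3 (0.73) and Psma5 (0.91) had smaller log2 fold changes and did not pass. Psma8 had the smallest log2 fold change of the ring (0.55 ± 0.63, limma adjusted p = 0.72), with values from 0 to 8.64 RPKM at 18 h that lay within the naïve range of 0 to 9.03 RPKM.

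In the beta ring, 3 of 7 tested genes rose, with a median log2 fold change of 1.19. Psmb3, a non-catalytic subunit, lay at 115, 134, 164, 174 and 262 RPKM at 18 h, against 13.7, 68.9 and 122 RPKM (lowest, median, highest) in naïve retinas. It had the largest change of the ring (1.55 ± 0.36, limma adjusted p = 0.0077), and only the 18 h retina 4 was within the naïve range. Psmb7, which carries the trypsin-like catalytic site, rose by 1.46 ± 0.38 (limma adjusted p = 0.020), from a naïve median of 15.9 RPKM to 53.5 RPKM, with 18 h retina 4 (27.7 RPKM) inside the naïve range. Psmb2 lay at 274, 574, 574, 578 and 697 RPKM at 18 h against 102, 247 and 334 RPKM in naïve retinas. Its log2 fold change was 1.24 ± 0.37 (limma adjusted p = 0.047), with the 18 h retina 4 alone inside the naïve range. Psmb3 stayed called whichever retina was left out, Psmb2 lost its call in 18 of 28 such fits (limma adjusted p up to 0.154, without 18 h retina 2) and Psmb7 in 4 (up to 0.072, without 18 h retina 1). The other 2 constitutive catalytic genes, Psmb5 (chymotrypsin-like site; 1.19 ± 0.59, limma adjusted p = 0.29) and Psmb6 (caspase-like site; 0.69 ± 0.39, limma adjusted p = 0.37), and the structural subunit Psmb4 (1.13) did not pass. Psmb1 had the smallest log2 fold change of the ring, 0.62 ± 0.35 (limma adjusted p = 0.37). Its 18 h values were 336, 361, 411, 431 and 807 RPKM, of which only the last exceeded the naïve range of 125 to 517 RPKM.

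**Figure D2:**
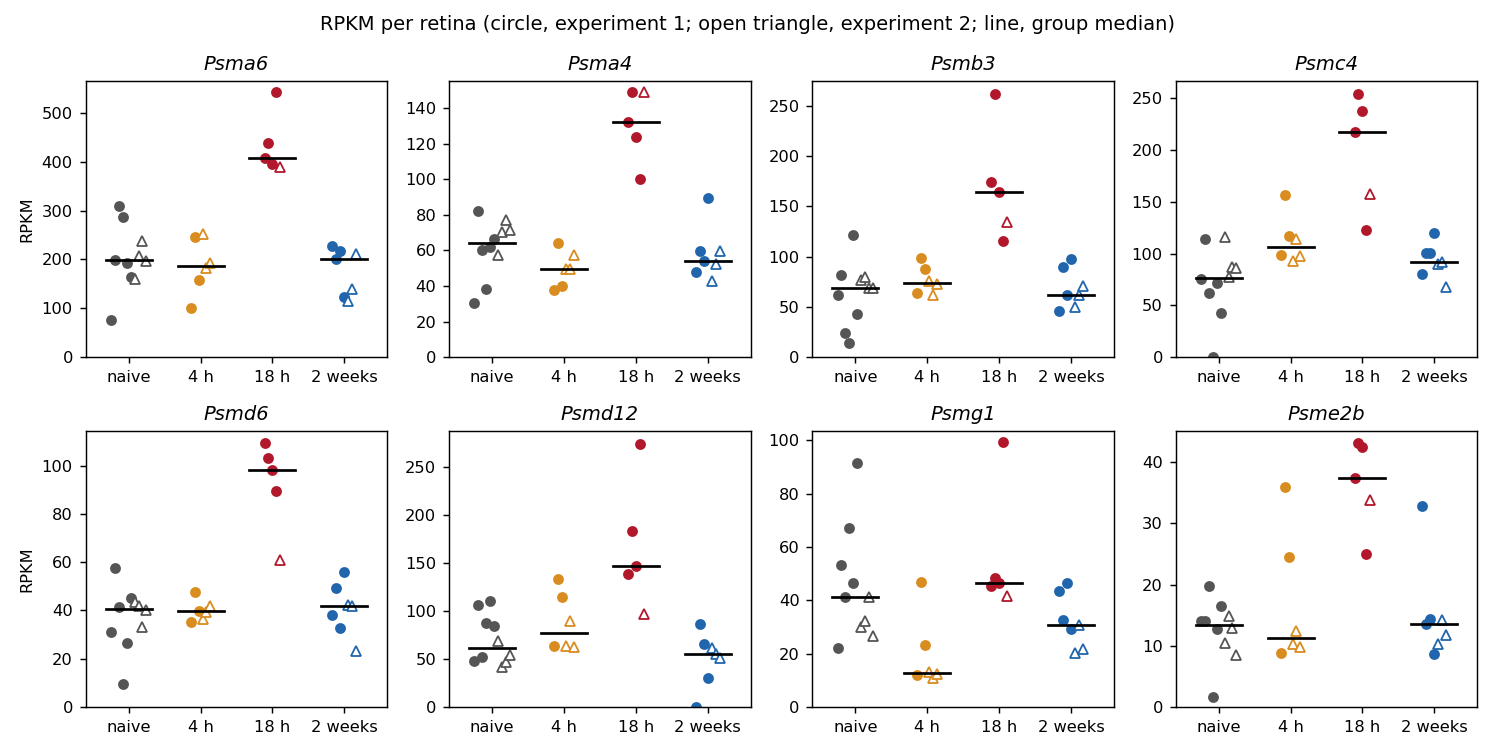
RPKM of 8 members in each retina, by group; filled circles are experiment 1, open triangles experiment 2 and horizontal lines group medians, and each vertical axis starts at 0. Psma6, Psma4, Psmc4, Psmd6 and Psme2b at 18 h lie above every naïve retina, and 4 of the 6 Psmg1 values at 4 h lie below every naïve retina.

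Of the 6 ATPases, 2 rose at 18 h, and the median log2 fold change was 1.20. Psmc1 lay between 83.6 and 257 RPKM (median 213 RPKM) against a naïve median of 86.0 RPKM and rose by 1.44 ± 0.38 (limma adjusted p = 0.019). Psmc2 lay between 95.6 and 121 RPKM, above every naïve retina (21.5 to 79.8 RPKM), and rose by 1.09 ± 0.31 (limma adjusted p = 0.032). Leaving out 1 retina at a time ended the call of Psmc1 in 3 of 28 fits (limma adjusted p up to 0.0873, without 18 h retina 1) and that of Psmc2 in 7 (up to 0.0945, without 18 h retina 1). Psmc4 had the largest log2 fold change of all members, 1.90 ± 0.64, but did not pass (limma adjusted p = 0.085). Its 18 h values were 122, 158, 218, 237 and 254 RPKM, all above the naïve retinas, of which 9 lay between 42.3 and 116 RPKM and naïve 4 at 0.0519 RPKM. Without naïve 4 the log2 fold change fell to 1.28 and passed (limma adjusted p = 0.00217). Psmc5 (1.31) and Psmc3 (0.70) did not pass. Psmc6 had the smallest change (0.67 ± 0.30, limma adjusted p = 0.22), with 73.1, 76.5, 91.9, 98.8 and 103 RPKM at 18 h inside the naïve range of 29.8 to 139 RPKM, the upper end of which was set by naïve 3.

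None of the 3 non-ATPase subunits of the base passed, at a median log2 fold change of 1.13. Psmd1, a large scaffold subunit, lay at 18.5, 21.2, 35.9, 39.2 and 43.3 RPKM at 18 h against 4.31, 15.3 and 20.7 RPKM in naïve retinas (lowest, median, highest), with 4 of 5 above all naïve retinas (1.21 ± 0.46, limma adjusted p = 0.14). The ubiquitin receptor Psmd4 had a similar estimate (1.13 ± 0.46, limma adjusted p = 0.17). Psmd2, another scaffold and a docking site for ubiquitin-like domains, varied more, with 6.30, 25.0, 27.1, 37.3 and 46.8 RPKM at 18 h and 1.54 to 38.7 RPKM in naïve retinas (0.69 ± 0.57, limma adjusted p = 0.58).

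Of the 8 lid genes, only Psmd6 passed at 18 h, although the median log2 fold change of the lid was 1.18. Psmd6 lay at 60.7, 89.6, 98.2, 103 and 110 RPKM, all above the naïve retinas (9.62, 40.7 and 57.5 RPKM). Its log2 fold change of 1.38 ± 0.31 had the smallest adjusted p among the members (limma adjusted p = 0.0058) and stayed called whichever retina was left out. Psmd7 did not overlap with naïve retinas either and lay just past the threshold (1.11 ± 0.34, limma adjusted p = 0.052). Psmd11 (1.25), Psmd12 (1.25), Psmd13 (1.28) and Psmd14, the deubiquitinase of the lid (1.10), had estimates above 2-fold that did not pass. Psmd3 (0.42) and Psmd8 (0.38 ± 0.58, limma adjusted p = 0.80) had the smallest. Psmd8 lay at 9.91, 31.2, 32.5, 44.0 and 45.5 RPKM at 18 h, inside the naïve range of 5.73 to 50.4 RPKM.

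No activator or chaperone gene passed at 18 h. Psme3, the gene of the nuclear activator PA28 gamma, lay at 11.9, 15.7, 17.5, 22.9 and 25.5 RPKM at 18 h against 1.39, 8.63 and 23.7 RPKM in naïve retinas (1.02 ± 0.48, limma adjusted p = 0.26). Psme4 lay between 2.18 and 5.38 RPKM against 0.546 to 4.95 RPKM (0.41 ± 0.38, limma adjusted p = 0.64), and the inhibitor gene Psmf1 had a log2 fold change of 0.86 (limma adjusted p = 0.30). The 7 assembly chaperones had a median log2 fold change of 0.51. Psmd5 had the largest, with 7.33, 15.4, 19.7, 22.4 and 22.9 RPKM at 18 h against 0.109 to 22.5 RPKM in naïve retinas (1.46 ± 0.67, limma adjusted p = 0.25). Psmd9 had the smallest (0.28 ± 0.52, limma adjusted p = 0.84), with 0.00257, 4.04, 5.52, 6.28 and 7.94 RPKM at 18 h against 0.00566, 4.13 and 6.52 RPKM in naïve retinas. Psmg1 (0.36), Psmg2 (0.52), Psmg3 (0.95), Psmg4 (0.50) and Psmd10 (0.51) lay between them. The lowest Psmd9 value of each group was below the worth of 1 read of a transcript of the median member length (0.0267 to 0.0701 RPKM). The symbol rule also took in Psme2b, an intronless copy of the PA28 beta gene Psme2. It lay at 25.1, 33.8, 37.5, 42.5 and 43.1 RPKM at 18 h, above all naïve retinas (1.63, 13.4 and 19.7 RPKM), and rose by 1.59 ± 0.40 (limma adjusted p = 0.014; 0.0517 without 18 h retina 2). Reads of a near-identical copy can be divided between the copies by the quantification, and Psme2 itself rose at 18 h, so the value of Psme2b is uncertain.

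**Figure D3:**
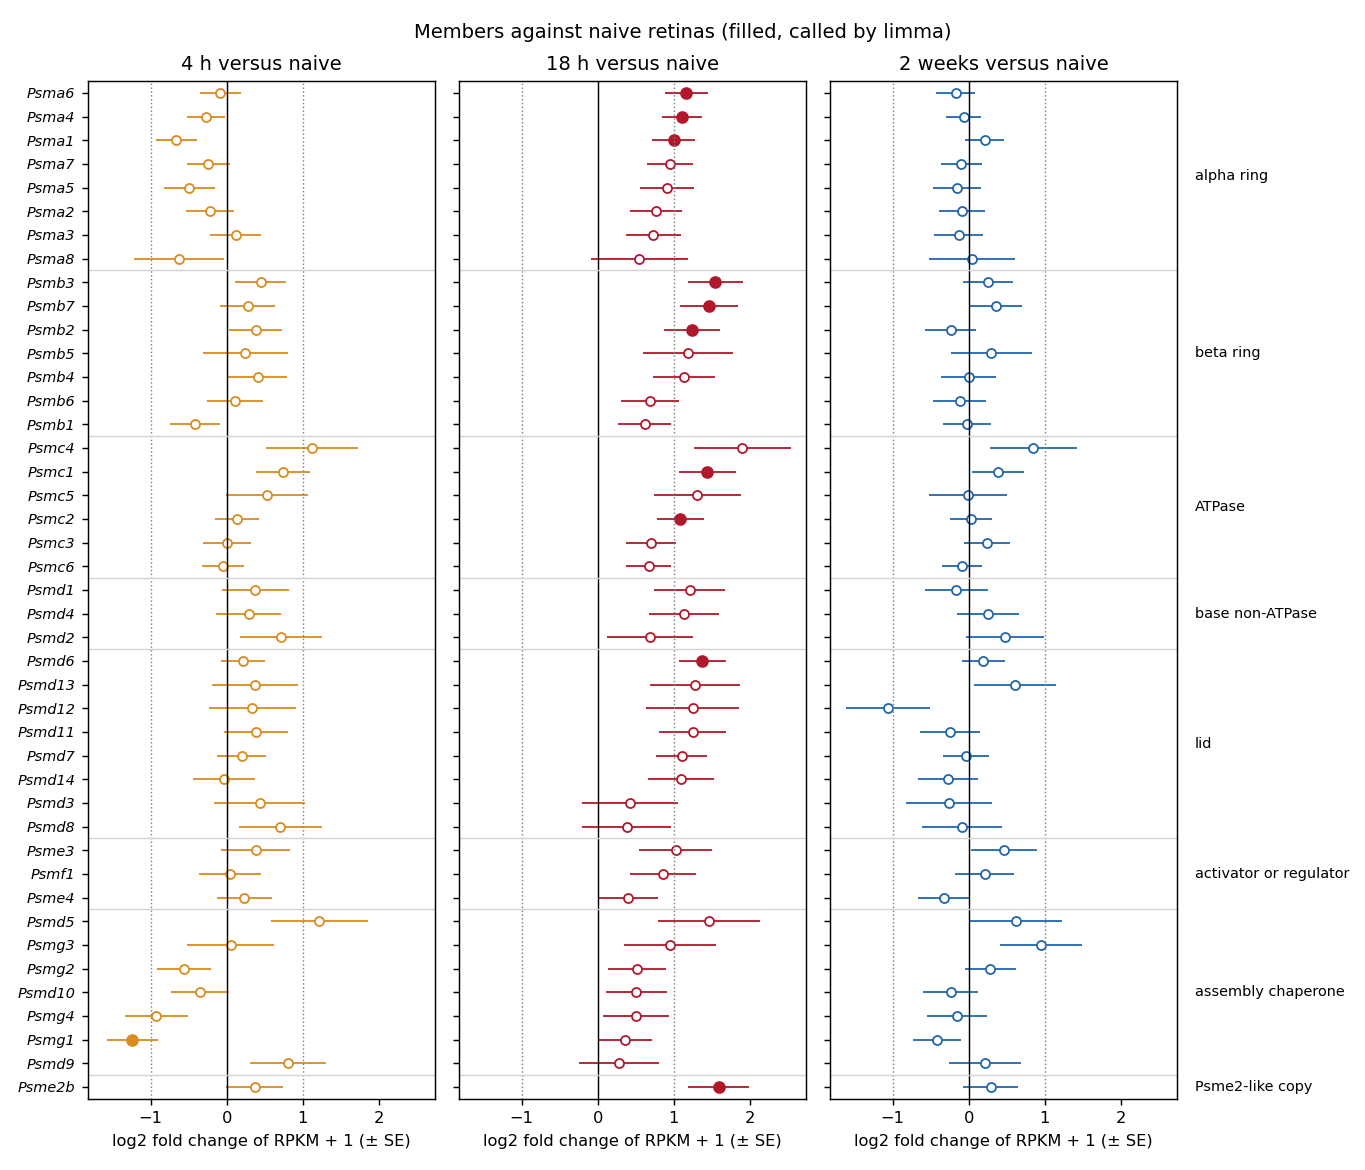
Log2 fold change of RPKM + 1 (± SE) of the 43 tested members against naïve retinas for the 3 time points, ordered by part of the complex; filled symbols were called by limma and dotted lines mark a 2-fold change. Points scatter around 0 at 4 h and 2 weeks, with Psmg1 called lower at 4 h, and all lie to the right of 0 at 18 h, where 10 were called.

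Because all tested members had higher means at 18 h, their promoters were examined for a pair of short motifs. The antioxidant response element core (TGACNNNGC on either strand) is the site type bound by the CNC factors, among them the proteasome regulator Nfe2l1, and the CCAAT box (CCAAT or ATTGG) is common in housekeeping promoters. RefSeq promoters (GRCm38.p6, 300 bases around the start site) were matched for 36 of 44 members. The antioxidant response element core was found in 6 of these 36 (16.7%), against 14.0% of 27025 genes, and the CCAAT box in 13 (36.1%), against 41.1% of genes. The examples are 150 bases upstream of the annotated start sites for the leading called gene of each part of the complex at 18 h (Psma6, Psmb3, Psmc1 and Psmd6) and for the 2 catalytic genes with an antioxidant response element core (Psmb5 and Psmb6). Motif matches are in capitals, 5′ to 3′ on the strand of the gene.
Psma6 (chr12:55384072-55384221, plus strand, 2 CCAAT boxes): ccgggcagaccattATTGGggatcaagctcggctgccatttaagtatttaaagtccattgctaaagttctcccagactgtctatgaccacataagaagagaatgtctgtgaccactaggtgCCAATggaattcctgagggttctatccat
Psmb3 (chr11:97703249-97703398, plus strand, 2 CCAAT boxes): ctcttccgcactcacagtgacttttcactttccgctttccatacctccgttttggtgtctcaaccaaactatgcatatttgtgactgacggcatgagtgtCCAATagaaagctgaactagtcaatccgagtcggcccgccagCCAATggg
Psmc1 (chr12:100110004-100110153, plus strand, 1 CCAAT box): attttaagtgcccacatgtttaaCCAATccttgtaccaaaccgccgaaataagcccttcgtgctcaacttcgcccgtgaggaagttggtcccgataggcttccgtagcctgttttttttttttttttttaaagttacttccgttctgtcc
Psmd6 (chr14:14120985-14121134, minus strand, no match): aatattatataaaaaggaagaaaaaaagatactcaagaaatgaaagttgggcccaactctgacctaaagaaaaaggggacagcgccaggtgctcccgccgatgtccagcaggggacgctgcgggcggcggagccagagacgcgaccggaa
Psmb5 (chr14:54618023-54618172, minus strand, 1 antioxidant response element core): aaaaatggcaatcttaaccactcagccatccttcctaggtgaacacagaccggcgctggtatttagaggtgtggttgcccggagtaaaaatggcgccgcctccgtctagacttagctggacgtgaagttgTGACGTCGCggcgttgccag
Psmb6 (chr11:70525207-70525356, plus strand, 1 antioxidant response element core): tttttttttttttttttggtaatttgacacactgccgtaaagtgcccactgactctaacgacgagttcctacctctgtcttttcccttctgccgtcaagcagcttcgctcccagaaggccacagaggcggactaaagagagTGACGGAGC
The 4 leading genes thus carried 2, 2, 1 and 0 CCAAT boxes and no antioxidant response element core in these windows. Psmb5 and Psmb6, which carried the core, had positive estimates at 18 h that did not pass the test. The core was also found for Psmc6, Psmd12, Psmd9 and Psme4. Whether either motif went with the 18 h change was not tested. Psma6 has 2 promoters in the table, of which the one at the start of the annotated gene is shown.

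At 4 h the members differed from naïve retinas in both directions and by less. Of 43, 29 were higher (43.3% of all genes) and 14 lower, with a median log2 fold change of 0.22 against -0.11 for all genes. No member rose (3.68% of all genes did) and 1 fell (4.39% of all genes). At an unadjusted p under 0.05 there were 4 members, 1 of them higher, and the share of all genes was again not computed. With retinas scaled to equal summed RPKM the median turned to -0.06 (all genes -0.28), so no direction of the whole set at 4 h is given.

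The gene that fell at 4 h was Psmg1, which encodes a chaperone that dimerises with the Psmg2 product to start alpha ring assembly. Its values at 4 h were 10.9 (lowest), 12.6 (median) and 46.7 RPKM (highest), against 22.0, 41.1 and 91.5 RPKM in naïve retinas. Of the 6 retinas, 4 lay below every naïve retina, and 4 h retina 2 lay above the naïve median. The log2 fold change was -1.24 ± 0.34 (limma adjusted p = 0.014). It was lower in both experiments, and called in experiment 2 alone. Without 4 h retina 5 it was -1.12 and missed the threshold (limma adjusted p = 0.054). The other alpha ring chaperones Psmg4 (-0.93 ± 0.41, limma adjusted p = 0.19) and Psmg2 (-0.56 ± 0.36, limma adjusted p = 0.40) had negative estimates that did not pass, and Psmg3 was at 0.05. With equal summed RPKM Psmg4 was also called. By contrast, the estimates for the ATPase-ring chaperones Psmd5 (1.22 ± 0.64, limma adjusted p = 0.28) and Psmd9 (0.81 ± 0.49, limma adjusted p = 0.38) were positive, and Psmd10 was at -0.35. Pomp, the maturation factor of the beta ring, which the symbol rule does not take in, had an estimate of -0.98 (limma adjusted p = 0.11).

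The parts of the complex differed in their estimates at 4 h, with no call in any of them other than Psmg1. The alpha ring had a median log2 fold change of -0.26, and 7 of its 8 genes were lower, the exception being Psma3 (0.12); Psma1 was the lowest (-0.66 ± 0.27, limma adjusted p = 0.14). Medians of the beta ring (0.28), the ATPases (0.33), the base (0.38) and the lid (0.36) were above 0, and Psmc4 was the highest of these genes (1.12 ± 0.60, limma adjusted p = 0.29). These 4 h estimates differed by experiment. In experiment 1 alone the member median was 0.35, and in experiment 2 alone it was -0.05. The alpha ring was at -0.29 and -0.33 in the 2 experiments, the ATPases at 0.54 and 0.05 and the chaperones at 0.25 and -0.54. The beta ring (0.45 and -0.04), the base (0.60 and -0.03) and the lid (0.50 and -0.03) were above 0 in experiment 1 only, and at equal summed RPKM they were at 0.01, 0.11 and 0.09.

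A direct comparison was made between the 2 acute stages. Of 43 members, 39 were higher at 18 h than at 4 h (51.5% of all genes), with a median log2 difference of 0.90 against 0.02 for all genes, and 7 rose (16.3% of members; 2.92% of all genes rose and 2.51% fell). The 7 were Psma1 (1.67 ± 0.31, limma adjusted p = 0.00074), Psmg1 (1.60 ± 0.39), Psma5 (1.40 ± 0.39), Psma4 (1.38 ± 0.29), Psma6 (1.25 ± 0.31), Psma7 (1.19 ± 0.33) and Psmd6 (1.16 ± 0.34), and thus included 5 of the 8 alpha ring genes. Psma1 lay at 45.3 to 101 RPKM at 4 h and at 193 to 262 RPKM at 18 h, without overlap. Psma5 overlapped through 4 h retina 2 at 290 RPKM, where the other 4 h retinas were at or below 226 RPKM and the 18 h retinas at 272 to 427 RPKM. For Psmg1 the change ran from a 4 h median of 12.6 RPKM to 41.7, 45.4, 46.6, 48.4 and 99.2 RPKM at 18 h. In all, 10 members did not overlap between these groups (4.84% of all genes were higher without overlap). Of the calls, that of Psmd6 was lost in 9 of 28 fits without 1 retina (limma adjusted p up to 0.104, without 18 h retina 1), that of Psma5 in 6 (up to 0.0909, without 4 h retina 1) and that of Psma7 in 6 (up to 0.0903, without 18 h retina 2). None of the beta ring genes, ATPases or base subunits was called here, with medians of 0.94, 0.75 and 0.83, but other settings called some: 2 beta ring genes on untransformed RPKM, 2 with the number of genes detected as a covariate, and 4 beta ring genes and 2 ATPases without the 4 retinas with the fewest genes. Whether the parts differed from each other was not tested.

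**Figure D4:**
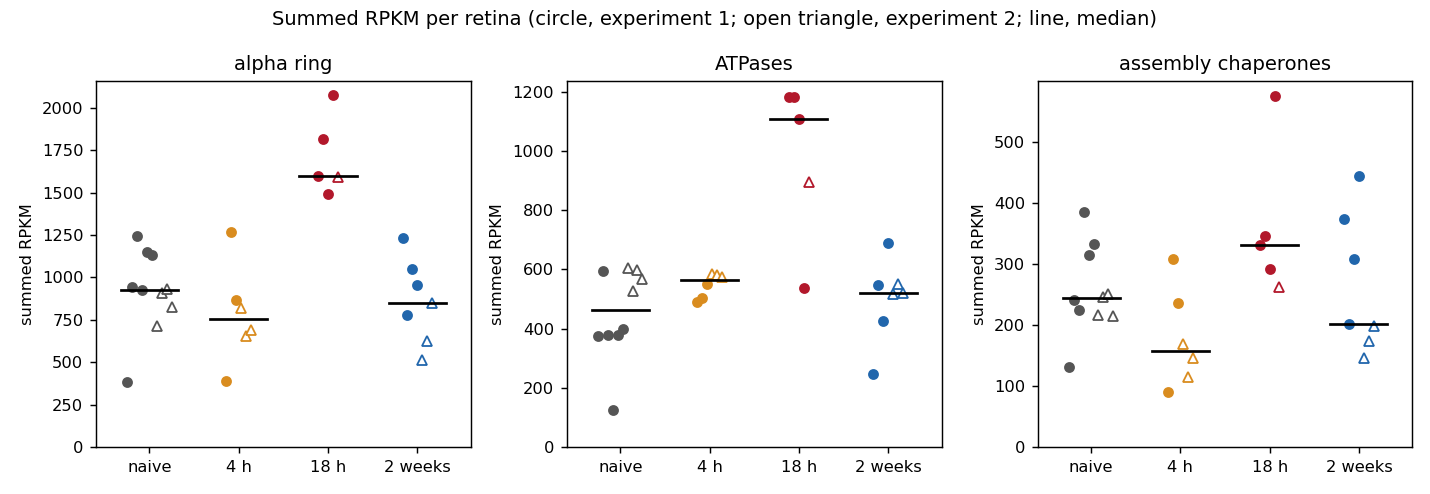
Summed RPKM of the alpha ring genes, the ATPases and the assembly chaperones in each retina, by group; filled circles are experiment 1, open triangles experiment 2 and lines group medians. Alpha ring sums at 18 h (1489 to 2073 RPKM) lie above all other retinas, while 1 of the 5 ATPase sums at 18 h and all chaperone sums except the highest overlap other groups.

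At the level of sums, the alpha ring held 1714 ± 234 RPKM at 18 h, against 915 ± 245 in naïve, 782 ± 289 in 4 h and 858 ± 247 RPKM in 2-week retinas (SD). The ATPases held 981 ± 275 RPKM at 18 h, against 455 ± 153, 548 ± 40.9 and 500 ± 137 RPKM in the others. Their lowest sum at 18 h, 537 RPKM in retina 4, lay inside the naïve range. Chaperone sums were 361 ± 124 RPKM at 18 h, against 255 ± 71.3, 177 ± 81.1 and 263 ± 113 RPKM.

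At 2 weeks no member was called against naïve retinas. Of 43, 20 were higher (57.4% of all genes) and 23 lower, with a median log2 fold change of -0.01 (0.07 for all genes), and limma called 0 members, where it called 0.0076% of all genes (1 of 13164). None had an unadjusted p under 0.05, for which the share of all genes was not computed. Log2 fold changes ran from -1.07 ± 0.55 for Psmd12 to 0.95 ± 0.54 for Psmg3 (limma adjusted p = 1 for each). For Psma6 the estimate was -0.17, with a 95% interval from -0.69 to 0.35, so differences of 2-fold lay outside the interval for this gene, but for genes as variable as Psmc4 (0.85 ± 0.57) they did not.

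From 18 h to 2 weeks all 43 members had a lower mean, where 60.1% of all genes had a higher one, with a median log2 difference of -0.87 against 0.16 for all genes, and 5 fell (1.55% of all genes were called lower and 1.1% higher). Psma6 fell from 389 to 542 RPKM at 18 h to 114, 200 and 227 RPKM (lowest, median, highest) at 2 weeks, without overlap (-1.34 ± 0.30, limma adjusted p = 0.010). Psma4 fell by 1.18 ± 0.28 (limma adjusted p = 0.014) to 43.0, 54.0 and 89.4 RPKM. Psmd6 fell by 1.19 ± 0.33 (limma adjusted p = 0.046) to 23.0, 42.1 and 55.8 RPKM. All 7 retinas lay below every 18 h retina for each of these 3 genes. Psmb2 was at 41.8, 252 and 320 RPKM at 2 weeks (-1.48 ± 0.40, limma adjusted p = 0.035), where the highest retina exceeded 18 h retina 4 at 274 RPKM. Psmd12, a lid subunit, was at -2.31 ± 0.65 (limma adjusted p = 0.050). Its 18 h values were 96.9, 138, 147, 183 and 274 RPKM and its 2-week values 0.0381, 55.4 and 85.8 RPKM. The lowest of these was 2-week retina 1, without which the estimate was -1.49 (limma adjusted p = 0.00957), and the groups did not overlap. Its call was lost in 22 of the 28 fits that each left out 1 retina (limma adjusted p up to 0.123, without 18 h retina 2), that of Psmd6 in 19 (up to 0.128, without 18 h retina 2), that of Psmb2 in 7 (up to 0.122, without 18 h retina 2) and that of Psma4 in 1 (0.0536, without 18 h retina 2), while Psma6 stayed called in all 28. In all, 9 members lay lower at 2 weeks without overlap (2.07% of all genes).

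Other genes of the ubiquitin-proteasome pathway were followed as a list of 35, all of which were tested. At 18 h 5 of the 35 rose and 1 fell, where 2.84% of all genes rose and 1.85% fell. Those that rose included the PA28 genes Psme2 (2.34 ± 0.35, limma adjusted p = 4.2e-05) and Psme1 (1.46 ± 0.33, 0.0057), the inducible catalytic subunit Psmb10 (1.23 ± 0.36, 0.044) and the ubiquitin-ribosomal fusion gene Rps27a (1.18 ± 0.33, 0.028). The gene that fell was Akirin2, whose product carries proteasomes into the nucleus (-1.55 ± 0.45, limma adjusted p = 0.040; -0.93 and 0.188 without 18 h retina 4). Of these calls, those of Psme2 and Psme1 held whichever retina was left out, while Psmb10 lost its call in 13 of 28 such fits (adjusted p up to 0.142, without 18 h retina 3), Rps27a in 3 (up to 0.0779, without 18 h retina 4) and Akirin2 in 9. The median of the 35 was 0.19, against 1.02 for the members, and that of the 9 shuttle factors and unfoldase genes, among them Vcp (0.41) and Rad23b (-0.10), was 0.19. The proteasome-bound enzymes Uchl5 (1.15, limma adjusted p = 0.067) and Usp14 (0.92, 0.084) did not pass. Nfe2l1, Nfe2l2, Mafg, Maff, Mafk and Ngly1 were followed with Akirin2 as a group of 7, and none of them rose at 18 h. Nfe2l1 was at 0.46 ± 0.38 (limma adjusted p = 0.58) and Nfe2l2 at -0.39. At 4 h 2 of the 35 rose, where 3.68% of all genes did, and none fell. They were Psme2 (1.06 ± 0.33, limma adjusted p = 0.038) and the small Maf factor Maff. Maff had a median of 5.90 RPKM at 4 h and at most 0.487 RPKM in naïve retinas, so it passed the filter through the group in which it was high, and its call is no support for a difference. Psme2 was at 0.79 without 4 h retina 2 (limma adjusted p = 0.156). The share of the inducible genes in the summed RPKM of the 6 catalytic genes was 16.6% ± 4.34 at 4 h, 29.1% ± 11.9 at 18 h and 31.0% ± 6.43 at 2 weeks (SD). The 18 h spread came mainly from retina 4, at 7.90%.

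Several measured quantities moved with the 18 h group. In experiment 1 alone (4 retinas at 18 h, 6 naïve) all 43 members were higher with a median of 1.20 and 1 was called, Psmb7. In experiment 2 alone, with 1 retina at 18 h assumed to vary like the other groups, the median was 0.69, 39 of 43 were higher and 0 were called. Lymphocyte markers (6 genes) summed to 6.59 to 86.4 RPKM at 18 h and at most 0.907 RPKM elsewhere. Rod markers had a median sum of 1778 RPKM at 18 h against 2920 RPKM in naïve retinas, and microglia markers fell as given above. The part of these in the proteasome values was not tested. Transcript length moved with the fold change over all genes at 18 h, from a median of 0.13 for 800 to 1500 bases to -0.30 above 4000 bases. The members had medians of 1.12 (14 genes) and 0.93 (2 genes) in these classes, and after removal of the trend with length and GC content their median was 0.88 and 6 were called, none of them in the alpha ring. Without the 4 retinas with few genes detected, 15 members were called at 18 h, with a median of 0.94. The shares of all genes called or higher were not computed for the fits in this paragraph. Their counts are therefore not set against all genes.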

How the data were processed

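Microglia mRNA was amplified (SMART-Seq v4), sequenced and, per the submitters' processing notes, handled with bcl2fastq 2.20, STAR 2.5.3a (mm10) and Partek. The deposited values are RPKM per gene, made by the authors with an expectation-maximisation count that can divide reads between similar genes. The deposited tables of 4 h and 18 h comparisons hold the authors' fold changes, p-values and F statistics and were not used.

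Log2(RPKM + 1) of 28 retinas was fitted in 1 model of 4 groups with limma 3.58.1 (R 4.3.3, empirical Bayes with trend). Benjamini-Hochberg adjustment covered the 13164 of 40021 genes with RPKM of at least 1 in at least 5 retinas. Genes with an adjusted p of at most 0.05 and at least a 2-fold change were called. Fold changes on this scale understate those of low genes. The script was run on simulated data with planted changes larger than those of most members at 18 h. That run therefore does not cover the effect sizes of most members.

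Members and lists were chosen with earlier results of these data known. Values by retina were given for the members with the largest and smallest 18 h change in each role and for members called lower or called at 4 h or 2 weeks. Further examples were chosen after their values were seen. Alternatives covered pseudocount, filter, covariates, scaling, experiment, length and GC content, and leaving out each retina. The fit on untransformed RPKM also differed in its test. It used ordinary t-tests without empirical Bayes, and its fold changes were ratios of group mean RPKM. The values of 1 gene of the pathway list are not reported here.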

Additional observations from a re-analysis of the deposited data

Results flagged for a closer look

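Single retinas that stood apart from their group were looked for in 172 combinations of member and group by Dixon's ratio, which chance passes in about 1 of 20; 32 did so. Of these, 26 were the lowest of their group. The 4 retinas with the fewest genes detected gave 25 of them, none in naïve 3. In naïve 4 these were Psmb5 at 4.12 RPKM, Psmc4 at 0.0519, Psmc5 at 13.8, Psmd6 at 9.62, Psme2b at 1.63 and Psmf1 at 0.0174 RPKM, all lowest. In 2-week retina 1 the lowest values were Psmb2 at 41.8 RPKM, Psmb4 at 6.21, Psmc5 at 9.86, Psmd12 at 0.0381, Psmd4 at 8.74, Psmd5 at 0.0279, Psmd7 at 15.2 and Psmd9 at 0.0198 RPKM, while Psme2b was the highest at 32.8 RPKM. In 18 h retina 4 the lowest values were Psmb2 at 274 RPKM, Psmb5 at 49.1, Psmc5 at 113, Psmd8 at 9.91, Psmd9 at 0.00257 and Psmg3 at 2.59 RPKM. In the same retina Psma2 at 261 RPKM, Psmb1 at 807, Psmd14 at 332 and Psmg1 at 99.2 RPKM were the highest. Values below 0.0267 RPKM are worth less than 1 read of a transcript of the median member length in any of these libraries.

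The other 7 were spread over 4 retinas. Psma2 (31.5 RPKM) and Psma6 (77 RPKM) were lowest in naïve 1, Psmb4 (26.8 RPKM) and Psmd9 (2.78 RPKM) in 4 h retina 1, and Psmc1 (60 RPKM) and Psmg3 (1.32 RPKM) in 4 h retina 2. Psma7 was highest in 18 h retina 2 (257 RPKM).

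The effect against naïve retinas differed between 18 h and 4 h for 7 members. Because both effects share the naïve retinas, this difference is the 18 h against 4 h contrast in the limma fit. On the log2 scale it was 1.67 for Psma1, 1.38 for Psma4, 1.4 for Psma5, 1.25 for Psma6, 1.19 for Psma7, 1.16 for Psmd6 and 1.6 for Psmg1.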

How the results depend on the processing

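The median log2 fold change of the members moved in every alternative by less than 0.34. This is the pooled SD within groups of the member median of single retinas, not the error of a group difference. Against naïve retinas the median ran from 0.69 to 1.20 at 18 h, -0.06 to 0.35 at 4 h and -0.19 to 0.19 at 2 weeks, fits without 1 retina included. It ran from 0.56 to 0.99 for 18 h against 4 h and from -1.05 to -0.57 for 2 weeks against 18 h. Numbers of members called moved more, and the cause was not tested. Calls over all genes were counted for the main fit and the replicate block only. The other counts are therefore not set against all genes, and a general change in calls cannot be told from one of the members. At 4 h (1 called) there were 0 with a pseudocount of 10, in experiment 1 alone and on untransformed RPKM, and 2 at equal summed RPKM and with the number of genes detected as a covariate. At 18 h (10 called) there were 1 in experiment 1, 0 in experiment 2, 4 after quantile normalisation, 2 at equal summed RPKM, 16 on untransformed RPKM, 6 after removal of the length and GC trend and 19 with the gene-number covariate. For 18 h against 4 h (7 called) these were 0 in experiment 1, 2 after quantile normalisation, 4 without the length and GC trend, 15 without the 4 retinas and 12 with the gene-number covariate. For 2 weeks against 18 h (5 called) there were 3 with a pseudocount of 0.1, without a filter, with eye side as covariate, with the replicate block and with only the 2 groups fitted. There were 8 with a filter at RPKM 5, 0 in experiment 1, 2 in experiment 2, 1 after quantile normalisation, 1 at equal summed RPKM, 16 on untransformed RPKM, 2 without the length and GC trend, 11 without the 4 retinas and 18 with the gene-number covariate. Fits without the 4 retinas or with the gene-number covariate were chosen after seeing the data. Leaving out 1 retina at a time gave 0 to 1 called at 4 h (0 without 4 h retina 5), 4 to 13 at 18 h (4 without 18 h retina 2), 0 at 2 weeks, 4 to 9 for 18 h against 4 h (4 without 18 h retina 1 or 2, or 4 h retina 1, 5 or 6) and 1 to 8 for 2 weeks against 18 h (1 without 18 h retina 2 and 8 without naïve 4). Psmd8 at 18 h turned to -0.20 in experiment 2 alone.

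Whether replicate numbers pair the retinas was not settled. Of 34 same-number pairs, 15 correlated over 0.1 (range -0.33 to 0.70), and the best-correlated retina had the same number in 16 of 68 cases. The numbers to be expected without pairing were not computed, so these counts cannot tell whether same-number retinas shared a block. With the replicate block 1, 9, 0, 5 and 3 members were called in the 5 comparisons, in the order 4 h, 18 h and 2 weeks against naïve, 18 h against 4 h and 2 weeks against 18 h. Of all genes tested, 1076, 598, 1, 554 and 250 were called with the block, in the same order. Depth limits values below the worth of 1 read, and detection was poorest in the 4 retinas with fewest genes.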
